A study of Mus musculus with 9 samples.

Results

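The genes of cholesterol synthesis, uptake and export were followed in sorted mouse liver stroma at 3 stages around birth. The set was a list of 36 genes, of which 32 had a probe set assigned to that gene alone, out of 19938 genes measured. It comprised 7 enzymes from hydroxymethylglutaryl-CoA synthase to the prenyl diphosphates, 12 enzymes from squalene to cholesterol, 5 genes of the SREBP control system, 4 of uptake and intracellular transport, the plasma esterifying enzyme Lcat and 3 exporters. Acat2, Soat1, Soat2 and Lipc were not analysed here. The cells came from livers of C57BL/6 mice with the genotype Cxcl12DsRed/+, in which 1 Cxcl12 allele carries the red fluorescent reporter. They were sorted as DsRed-positive cells that lacked CD45 and Ter119, surface markers of blood cells. RNA was measured on Affymetrix arrays, with 3 arrays for each of embryonic day E15.5, postnatal day P5 and postnatal day P10. All groups share the reporter allele and none was treated. The labels call the arrays of a stage independent replicates but do not name the animals or pools behind them. The p-values therefore cover only the variation among these 9 arrays, part of which may be technical. Signal of the Y-linked gene Eif2s3y differed between arrays of each stage (values below).

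Cholesterol is built from acetyl-CoA through mevalonate, isoprenoids, squalene and a series of sterols. The membrane-bound factor SREBP-2 raises transcription of most of these enzymes when sterols in the endoplasmic reticulum run low, and its escort protein Scap is held back by the Insig proteins when sterols are plentiful. Excess cholesterol is esterified, passed to lipoproteins by Abca1 or secreted into bile by the paired half-transporters Abcg5 and Abcg8. Abca1, Abcg5 and Abcg8 are all known targets of the oxysterol receptor LXR. In the liver, hepatocytes carry most of this traffic, but every dividing cell can run the synthesis steps.

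Values are log2 signals, which compare arrays for 1 gene and not levels of different genes. Array medians lay between 6.22 and 6.45. Pearson r across probe sets was 0.983 to 0.993 between arrays of a stage and 0.901 to 0.985 between stages. Array dates are not given in the sources used here, and a batch that followed stage cannot be told apart from stage. Cxcl12, the gene of the sort, lay at 10.68 to 11.31 on the E15.5 arrays, 9.95 to 10.31 on the P5 arrays and 10.01 to 10.31 on the P10 arrays. The 10 stellate cell markers averaged 9.91 to 10.14 at E15.5, 8.15 to 8.48 at P5 and 7.88 to 8.08 at P10. All 10 were called lower at P5 and at P10 than at E15.5 (17.7% and 18.6% of all genes). Their brightest genes were Dcn and Reln. The 9 measured hepatocyte markers averaged 8.89 to 9.09 at E15.5, 12.22 to 12.29 at P5 and 12.25 to 12.48 at P10, with the highest signals for Ttr and Alb. Of these, 8 were called higher at P5 and 8 at P10 than at E15.5 (17.9% and 20.1% of all genes). Alb was not called (0.06 ± 0.060 at P5) and Ttr rose little (0.20 ± 0.055 at P5), while Cyp2e1, Fbp1, Tat and Cps1, named after their values were seen, rose by 7.17, 7.10, 5.98 and 4.20 at P5. In such bulk RNA, fewer cells of a type and less RNA per cell cannot be told apart. The 8 macrophage markers averaged 5.30 to 5.45 over all arrays, and 4 of them, but not the brightest 2, Cd68 and Clec4f, had means under percentile 30 of all genes.

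Idi1, Hmgcs1, Hsd17b7, Nsdhl and Lss had their highest stage mean at P5, although Hmgcs1 was not called at P10 against P5. Sqle, Cyp51 and Msmo1 were lowest at P10. Abcg5 and Abcg8 rose at each stage, and Abca1, Npc1 and Npc2 were lower at P5 and P10 than at E15.5. At P5 against E15.5, 15 of the 32 genes rose and 7 fell by limma at an adjusted p under 0.05, where 17.9% of all genes rose and 17.7% fell, 35.6% in all. Their median log2 difference was 0.38, beside 0.029 for all genes. At P10 against E15.5, 9 rose and 11 fell (20.1% and 18.6% of all genes, 38.7% together), with a median of -0.14 beside 0.024. At P10 against P5, 2 rose and 10 fell (2.76% and 2.89% of all genes, 5.65% together), with a median of -0.44 beside -0.0015. All P5 arrays lay above all E15.5 arrays for 16 of the 32 genes and below for 7 (24.1% and 21.1% of all genes). All P10 arrays lay above all E15.5 arrays for 10 and below for 11 (27.9% and 23.8%), and above all P5 arrays for 4 and below for 16 (10.6% and 9.66%). The comparisons share arrays, each stage entering 2 of them.

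**Figure D1:**
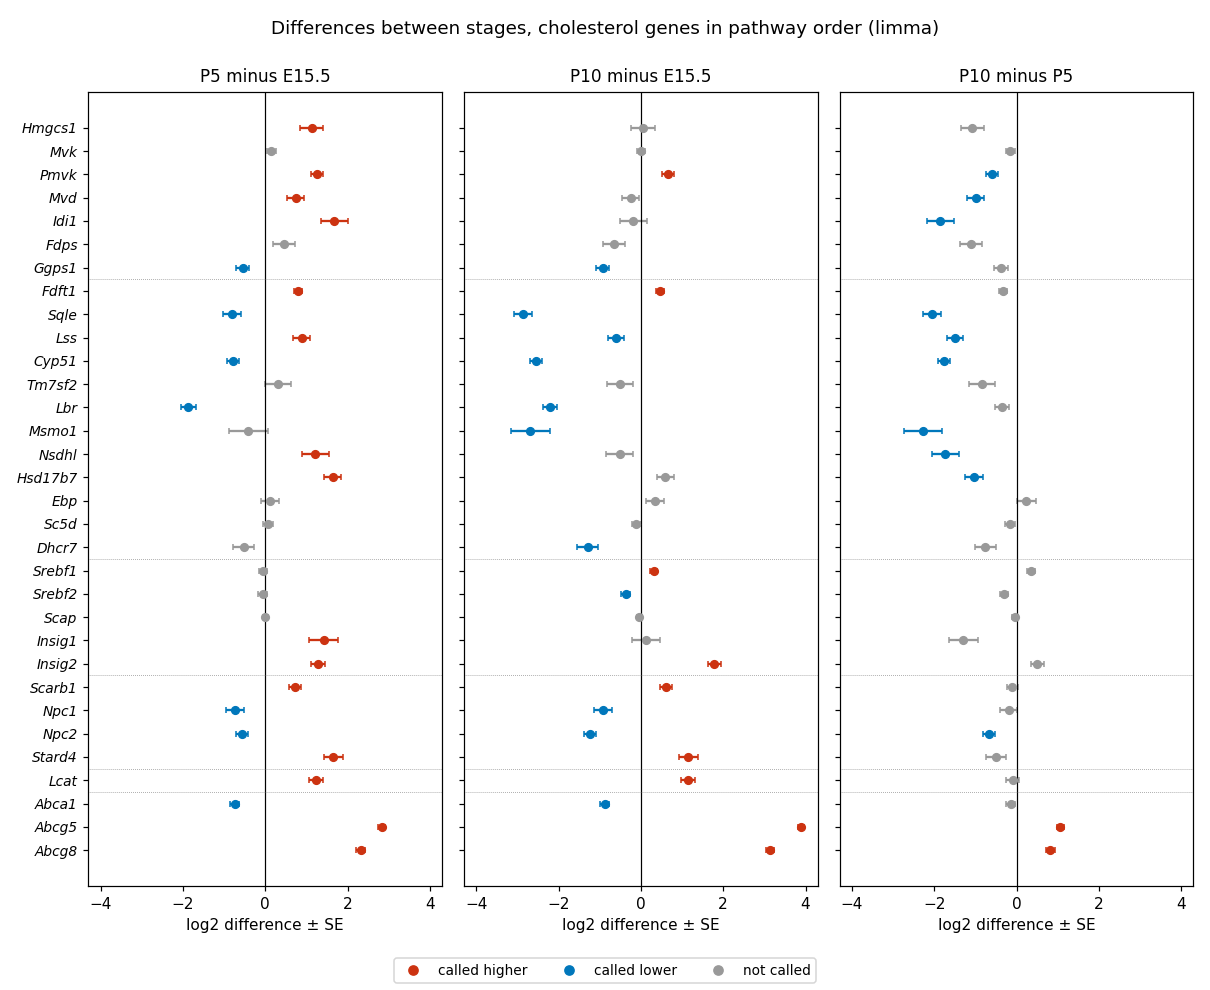
Log2 differences with their standard errors (x axes) for the 32 genes in pathway order (y axis), in 3 panels for P5 less E15.5, P10 less E15.5, and P10 less P5. Red points are called higher, blue called lower and grey not called, and dotted lines part the functional groups. Abcg5 lies at 2.83, 3.89 and 1.06, whereas Sqle lies at -0.80, -2.87 and -2.06.

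The 19 synthesis enzymes had their highest stage mean at P5 in 12 cases, or 63.2%, against 28.1% of all genes. The lowest was at P10 in 13 cases, or 68.4%, against 30.4% of all genes. P5 was the lowest stage for 0 of the 19, against 21.2% of all genes. In the step to P10 after P5, 9 of the 19 fell and 0 rose (2.89% and 2.76% of all genes). Of the 19 differences, 18 were negative, also in each of the 16 alternative settings. The filter, the variance trend, the replicate block and the fits without an E15.5 array leave these differences as they are, so no sign could change there. The number called was 13 without P10 array 1, but 5 without E15.5 array 1, 4, 5 and 6 without P5 array 1, 2 and 3, and 3 and 5 without P10 arrays 2 and 3. It was 6 with the Y-linked signal of each array as a term, an alternative chosen after seeing the data.

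Promoter sequences are shown for a pair of enzymes with their highest stage mean at P5 and a pair that fell to P10. The reason is that SREBP-2 is known to act together with the factor NF-Y, whose box reads CCAAT, or ATTGG on the other strand. The windows are the 250 bases before the RefSeq start in build GRCm38.p6, written 5′ to 3′ along the gene with these boxes in capitals. Hmgcs1 is at chr13:119690101-119690350 on the plus strand, Idi1 at chr13:8885356-8885605 on the plus strand, Cyp51 at chr5:4104698-4104947 on the minus strand and Msmo1 at chr8:64733579-64733828 on the minus strand.
Hmgcs1: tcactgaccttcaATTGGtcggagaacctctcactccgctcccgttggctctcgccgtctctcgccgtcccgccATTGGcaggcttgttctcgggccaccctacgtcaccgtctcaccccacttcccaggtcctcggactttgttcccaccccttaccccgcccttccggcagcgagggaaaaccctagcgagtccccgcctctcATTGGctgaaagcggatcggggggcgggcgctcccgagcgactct
Idi1: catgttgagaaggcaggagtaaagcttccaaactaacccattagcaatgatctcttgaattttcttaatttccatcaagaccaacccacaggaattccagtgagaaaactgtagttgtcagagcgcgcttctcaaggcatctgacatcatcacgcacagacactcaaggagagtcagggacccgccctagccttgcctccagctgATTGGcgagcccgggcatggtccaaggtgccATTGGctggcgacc
Cyp51: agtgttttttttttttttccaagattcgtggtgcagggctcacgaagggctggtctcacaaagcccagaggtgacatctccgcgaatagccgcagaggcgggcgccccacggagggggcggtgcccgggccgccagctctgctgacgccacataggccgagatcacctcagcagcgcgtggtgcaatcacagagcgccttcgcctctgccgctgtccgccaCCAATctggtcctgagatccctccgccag
Msmo1: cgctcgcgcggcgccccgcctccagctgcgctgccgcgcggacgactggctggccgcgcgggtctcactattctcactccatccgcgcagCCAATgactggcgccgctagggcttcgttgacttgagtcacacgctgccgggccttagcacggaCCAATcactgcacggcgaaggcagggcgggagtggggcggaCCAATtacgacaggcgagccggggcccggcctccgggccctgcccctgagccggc
Both pairs carry the box, 3 times in Hmgcs1, 2 times in Idi1, once in Cyp51 and 3 times in Msmo1, with the nearest one 45, 14, 29 and 55 bases before the start.

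Promoters were found for 16 of the 19 synthesis enzymes, and 16 of these held at least 1 CCAAT on either strand, against 39.5% of 17491 protein-coding genes. The Sp1 box GGGCGG was in 14 of the 16, against 45.8%, and both boxes were in 14, against 16.8%. The E-box CACGTG was in 3, against 7.61%. Among 10 other measured members with a promoter, CCAAT was in 7, GGGCGG in 7, both boxes in 4 and CACGTG in 3. The sterol regulatory element written as TCACNCCAC, a form chosen after seeing the sequences, was in the Hmgcs1 window alone among the 16, against 1.2%. Its form with A before these letters, which contains the shorter one, was in 0 of the 16 and in 0.217% of protein-coding genes. All motifs were searched on both strands. A gene with several windows was counted if any of them matched, and for both boxes if 1 window held both. A match is a description of letters.

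In the mevalonate part, 4 of 7 enzymes rose at P5 against E15.5, 1 fell and 2 did not pass. Of all genes, 17.9% rose and 17.7% fell there. Idi1 (probe set 10482762), the isomerase that makes dimethylallyl diphosphate, had log2 signals of 9.85, 10.04 and 9.66 at E15.5, 11.36, 11.39 and 11.83 at P5 and 10.47, 9.52 and 9.02 at P10. All P5 arrays lay above all other arrays. The P5 arrays exceeded E15.5 by 1.67 ± 0.33 (difference ± SE, n = 3 per stage, limma adjusted p = 0.00399), a 3.19-fold difference. In P10 against P5 arrays Idi1 fell (-1.86 ± 0.33, adjusted p = 0.0164, or 0.0667 without P10 array 2). A second Idi1 probe set gave 1.69 ± 0.31 and -1.77 ± 0.31 for the same comparisons.

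Hmgcs1 (probe set 10412466), which joins acetyl-CoA and acetoacetyl-CoA at the entry to the pathway, had 10.50, 10.96 and 10.49 at E15.5, 11.78, 11.70 and 11.85 at P5 and 11.23, 10.89 and 9.98 at P10. The P5 arrays were again above all others, while the P10 arrays spread over more than a log2 unit and overlapped E15.5. The gene rose at P5 against E15.5 by 1.12 ± 0.29 (adjusted p = 0.0153, but 0.0557 and 0.0553 without E15.5 array 1 and 3 and 0.0512 after quantile normalisation). The Hmgcs1 difference at P10 against P5 missed the threshold, at -1.07 ± 0.29 (adjusted p = 0.0743, but 0.0395 without P10 array 1, 0.0461 with the filter and 0.0497 with the variance trend).

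Pmvk (probe set 10493548), the phosphomevalonate kinase gene, had 8.42, 8.15 and 8.35 at E15.5, 9.39, 9.73 and 9.57 at P5 and 9.24, 8.88 and 8.78 at P10. The 3 stages did not overlap, and P10 lay between the others. Pmvk rose by 1.25 ± 0.14 at P5 and by 0.66 ± 0.14 at P10, each against E15.5 (adjusted p = 0.000157 and 0.00494). Its decrease at P10 against P5, -0.59 ± 0.14 (adjusted p = 0.0461), passed in only 1 of 9 fits that left out an array, the one without P10 array 1 (0.0538 to 0.1499 in the others), and it ended with the replicate block, ribosomal centring and the variance trend (0.0933, 0.0834 and 0.0521).

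Mvd, the decarboxylase that yields isopentenyl diphosphate, averaged 8.63 ± 0.24 in E15.5 cells, 9.37 ± 0.24 in P5 cells and 8.38 ± 0.37 in P10 cells (SD, n = 3). It rose at P5 against E15.5 (0.74 ± 0.21, adjusted p = 0.0230, and 0.0612 to 0.0819 without P5 array 1, E15.5 array 3, or P5 array 3). It fell at P10 against P5 (-0.99 ± 0.21, adjusted p = 0.0310, and 0.0560 to 0.106 without E15.5 array 1, P5 arrays 1 or 3, or P10 arrays 2 or 3, and 0.0628 with the Y-linked term). Fdps, which makes farnesyl diphosphate, had no called difference, although its 3 P5 arrays lay above both other stages, with means of 10.61 in E15.5 cells, 11.05 in P5 cells and 9.95 in P10 cells. The Fdps difference at P10 against P5 was -1.10 ± 0.27 (adjusted p = 0.0549), and it passed with the filter, quantile normalisation, the variance trend and without P10 array 1 (0.0329, 0.0392, 0.0373 and 0.00364). At P10 against E15.5 it was -0.66 ± 0.27, but -1.01 with quantile normalisation and -1.004 without P10 array 1, where it also passed (0.0126 and 0.00100). At P5 against E15.5 it was 0.45 ± 0.27, which passed without P10 array 1 (0.0279). Mvk, the mevalonate kinase gene, stayed within 7.56 to 8.05 on all arrays.

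Ggps1, the branch enzyme that makes geranylgeranyl diphosphate for protein prenylation and not for sterols, went the other way. It averaged 8.39 ± 0.22 in E15.5 cells, 7.84 ± 0.16 in P5 cells and 7.46 ± 0.29 in P10 cells. The decreases against E15.5 were -0.55 ± 0.17 at P5 (adjusted p = 0.0321, and 0.0679 to 0.103 without E15.5 arrays 1 or 2 or P5 arrays 2 or 3) and -0.93 ± 0.17 at P10 (adjusted p = 0.00210).

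**Figure D2:**
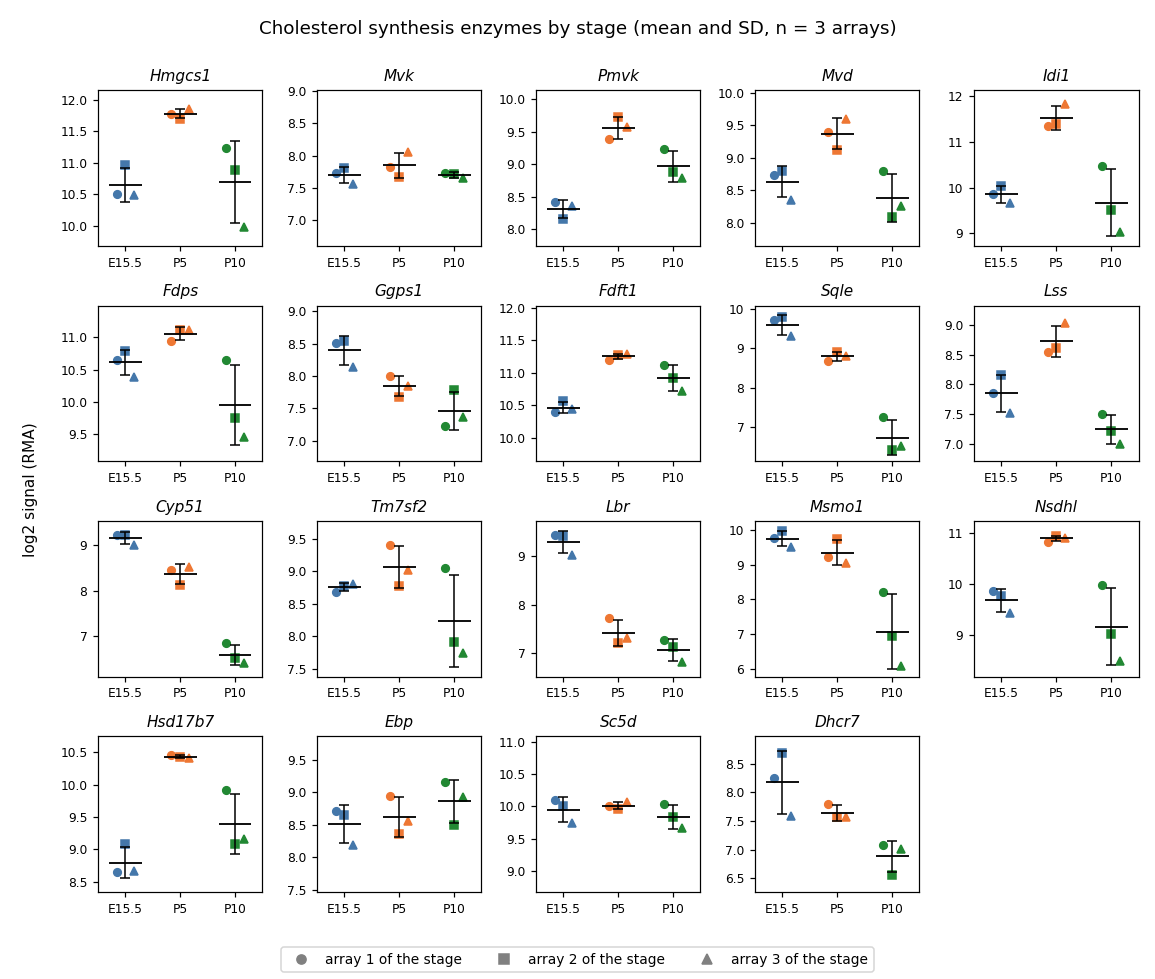
Log2 signal (y axes, set for each gene, with a shared minimum span) of the 19 synthesis enzymes on each array, by stage (x axes). Symbols mark the 3 arrays of a stage, and black lines are the mean and SD. The P5 arrays of Idi1, Hmgcs1, Nsdhl and Hsd17b7 lie above the other stages, and those of Sqle and Cyp51 between E15.5 and P10.

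Among the 12 enzymes from squalene synthesis on, 4 rose and 3 fell at P5 against E15.5 (17.9% and 17.7% of all genes). At P10, 1 rose and 6 fell against E15.5 (20.1% and 18.6%), and 0 rose and 6 fell against P5 (2.76% and 2.89%). Hsd17b7 (probe set 10359917), a 3-ketosteroid reductase of the demethylation steps, had 8.64, 9.08 and 8.67 at E15.5, 10.45, 10.43 and 10.41 at P5 and 9.92, 9.08 and 9.16 at P10. The P5 arrays were nearly identical and above the rest. They exceeded E15.5 by 1.64 ± 0.21 (adjusted p = 0.000431). In the P10 arrays, against P5, the gene fell by 1.04 on the log2 scale, SE 0.21 (adjusted p = 0.0298). That call held only without E15.5 array 2, E15.5 array 3 or P10 array 1 (0.0521 to 0.101 in the other 6 fits that left out an array, 0.0571 with the Y-linked term and 0.0591 with the replicate block). Its difference at P10 against E15.5 was 0.59 ± 0.21 (adjusted p = 0.0595), which passed without E15.5 array 2 or P10 array 2 and with ribosomal centring, the filter or the variance trend (0.0326 to 0.0473).

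Nsdhl (probe set 10600082), an X-linked sterol dehydrogenase of the same steps, had 9.86, 9.75 and 9.42 at E15.5, 10.83, 10.94 and 10.91 at P5 and 9.98, 9.02 and 8.48 at P10. Its P5 arrays also stood above all others. It rose at P5 against E15.5 by 1.22 ± 0.33 (adjusted p = 0.0186, and 0.0680 and 0.0509 without E15.5 array 3 and P5 array 2). It fell at P10 against P5 (-1.73 ± 0.33, adjusted p = 0.0210, and 0.0543 to 0.0809 without P5 array 1, P5 array 2 or P10 array 2). Its P10 difference from E15.5 was -0.52 ± 0.33 (adjusted p = 0.266), but -0.93 without P10 array 1 (0.00578).

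Lss (probe set 10364194), which closes squalene epoxide into lanosterol, had 7.86, 8.15 and 7.52 at E15.5, 8.55, 8.60 and 9.03 at P5 and 7.50, 7.21 and 6.9997 at P10. The 3 stages did not overlap, with P10 lowest. Lss rose at P5 against E15.5 (0.88 ± 0.20, adjusted p = 0.00810) and fell at P10 against P5 (-1.49 ± 0.20, adjusted p = 0.00495), and both calls held without any 1 array. Its decrease at P10 against E15.5 (-0.61 ± 0.20, adjusted p = 0.0404) did not pass without E15.5 arrays 1 or 2, P5 array 2, or P10 arrays 2 or 3 (0.0516 to 0.132), nor with ribosomal centring, quantile normalisation, the replicate block or the Y-linked term (0.0506 to 0.0945). Fdft1, squalene synthase, averaged 10.46 ± 0.087 in E15.5 cells, 11.25 ± 0.041 in P5 cells and 10.92 ± 0.20 in P10 cells. It rose at P5 (0.79 ± 0.10) and at P10 (0.46 ± 0.10), each against E15.5, but after quantile normalisation the P5 rise was 0.49 (adjusted p = 0.00582) and the P10 difference 0.098, which did not pass (0.502). The P10 difference from P5, -0.33 ± 0.10, passed without P10 array 1 (0.0394). Its second probe set had larger differences, 1.29 ± 0.14 and 0.88 ± 0.14.

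Sqle, Cyp51 and Msmo1, which catalyse oxidative steps of the sterol part, followed another course and had the largest decreases of the set at P10 against E15.5. Sqle (probe set 10424349), the squalene epoxidase gene, had 9.71, 9.79 and 9.31 at E15.5, 8.68, 8.92 and 8.80 at P5 and 7.25, 6.44 and 6.52 at P10. Each stage lay wholly below the one before. At P10 Sqle was 7.30-fold lower than at E15.5 (-2.87 ± 0.22, adjusted p = 1.25e-05) and 4.18-fold lower than at P5 (-2.06 ± 0.22, adjusted p = 0.00189). The earlier step, P5 against E15.5, was smaller (-0.80 ± 0.22, adjusted p = 0.0197, and 0.0627 to 0.0685 without E15.5 array 1, E15.5 array 2 or P5 array 1).

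Cyp51 (probe set 10527920), the lanosterol demethylase gene whose promoter is shown above, had 9.22, 9.23 and 8.998 at E15.5, 8.45, 8.12 and 8.52 at P5 and 6.85, 6.53 and 6.42 at P10. Its stages did not overlap either, and the P10 mean of 6.60 lay under the median of all gene means, 6.83. The decreases were -0.78 ± 0.14 at P5 against E15.5 (adjusted p = 0.00274), -2.55 ± 0.14 at P10 against E15.5 (adjusted p = 2.10e-06) and -1.77 ± 0.14 at P10 against P5 (adjusted p = 0.000705), and all held without any 1 array.

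Msmo1 (probe set 10578916), the C4 methyl oxidase gene, had 9.78, 9.97 and 9.52 at E15.5, 9.23, 9.75 and 9.06 at P5 and 8.21, 6.93 and 6.07 at P10. The P10 arrays lay below all others but were far apart, with an SD of 1.08, the largest of the set. Msmo1 fell at P10 against E15.5 (-2.68 ± 0.47, adjusted p = 0.00182). Its decrease at P10 against P5 was -2.27 ± 0.47 (adjusted p = 0.0298, and 0.0514 to 0.104 without E15.5 arrays 1 or 2, P5 arrays 1 or 2, or P10 arrays 2 or 3, and 0.0531 with the Y-linked term). The P5 and E15.5 arrays overlapped (-0.41 ± 0.47, adjusted p = 0.556).

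Lbr (probe set 10360745), an inner nuclear membrane protein that binds lamin B and also reduces the C14 double bond of sterols, had 9.43, 9.42 and 9.03 at E15.5, 7.72, 7.22 and 7.32 at P5 and 7.27, 7.13 and 6.82 at P10. The E15.5 arrays were clear of the rest. Lbr fell by 1.87 on the log2 scale at P5 against E15.5 (SE 0.17, adjusted p = 5.89e-05). Its P10 difference from E15.5 was -2.21 ± 0.17 (adjusted p = 1.53e-05), and the P10 and P5 arrays overlapped. Tm7sf2, the other C14 sterol reductase, had means of 8.75 ± 0.062 in E15.5 cells, 9.06 ± 0.32 in P5 cells and 8.23 ± 0.70 in P10 cells and no called difference. Without P10 array 1 it was called lower at P10 than at E15.5 (-0.92, adjusted p = 0.00432, against -0.52 with all arrays) and than at P5 (-1.23, adjusted p = 0.0125, against -0.83).

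Dhcr7 (probe set 10559312), a terminal sterol reductase, had 8.26, 8.68 and 7.59 at E15.5, 7.81, 7.57 and 7.57 at P5 and 7.08, 6.57 and 7.005 at P10. The P10 arrays were below all others. Dhcr7 fell at P10 against E15.5 (-1.29 ± 0.26, adjusted p = 0.00396) but not detectably at P5 (-0.53 ± 0.26, adjusted p = 0.158, but -0.82 and 0.0142 without E15.5 array 3). Without that array it also passed at P10 against P5 (-0.76, 0.0498). Ebp, the sterol isomerase, and Sc5d, the C5 desaturase, had no called difference, with stage means of 8.52 to 8.86 and 9.84 to 10.01. After quantile normalisation Sc5d was called lower at P10 than at E15.5 (-0.44, adjusted p = 0.0109, against -0.11 as deposited).

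The P10 arrays disagreed among themselves in these enzymes. P10 array 1 was the highest of the 3 P10 arrays for 18 of the 19, or 94.7%, against 42.8% of all genes. Its median deviation from the P10 mean was 0.29, beside -0.14 and -0.21 on P10 arrays 2 and 3 and 0.0073 on array 1 over all genes. At E15.5, array 3 was the lowest for 15 of the 19, with a median deviation of -0.22. Over all genes it was the lowest for 7870 of 19938, with a median deviation of -0.014. The median SD of the 19 enzymes was 0.23 in E15.5 cells, 0.17 in P5 cells and 0.33 in P10 cells, against 0.10, 0.12 and 0.093 for all genes. P10 array 1 was also the only P10 array with signal of the Y-linked gene Eif2s3y (8.97, against 4.004 and 3.998 on arrays 2 and 3), which P5 arrays 2 and 3 (8.98 and 9.24) and E15.5 array 3 (7.94) shared. The 9 hepatocyte markers averaged 12.48 on it, beside 12.25 and 12.34 on the other P10 arrays, and the part of either in its high values was not tested.

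**Figure D3:**
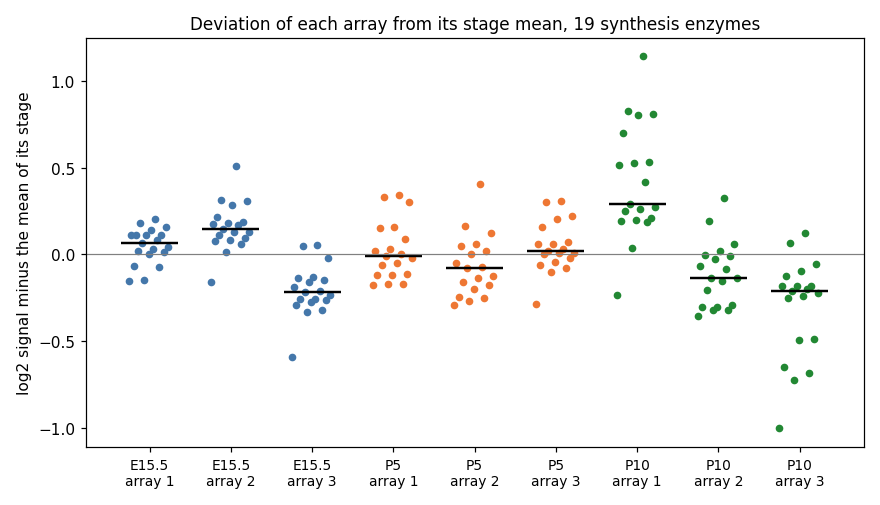
Log2 signal minus the mean of its own stage (y axis) for each of the 19 synthesis enzymes (points) on the 9 arrays (x axis, by stage), with the median as a black line. P10 array 1 has a median of 0.29 and P10 array 3 of -0.21, with points up to about a log2 unit away from 0.

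Hepatocyte markers averaged 12.25 to 12.48 at P10 and 12.22 to 12.29 at P5. Of these 9 markers, 1 was called higher at P10 than at P5, 1 lower and 7 not (2.76% of all genes higher and 2.89% lower). Their differences ran from -0.53 to 1.07. The 5 cholangiocyte markers, such as Sox9 and Krt7, averaged 7.05 to 7.15 at P10, 7.98 to 8.03 at P5 and 6.74 to 7.06 at E15.5. Endothelial markers, such as Lyve1 and Clec4g, averaged 6.94 to 7.40 at P10 and 8.23 and 8.58 on P5 arrays 2 and 3, but 6.64 on P5 array 1. Erythroid markers, with the highest signals for Alas2 and Slc4a1, averaged 6.63 to 7.42 at E15.5, 6.37 to 6.39 at P5 and 6.40 to 6.58 at P10. Alas2 was higher at P10 than at E15.5 (1.12 ± 0.092) and than at P5 (0.90 ± 0.092), whereas Slc4a1 was lower at P10 than at E15.5 (-1.71 ± 0.25). The part of these cell types in the high P5 means of the enzymes was not tested.

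In SREBP control, 2 of 5 genes, both Insig genes, rose at P5 against E15.5 and 0 fell (17.9% and 17.7% of all genes). At P10 against E15.5, 2 rose and 1 fell (20.1% and 18.6%). The annotation also lists Srebf2, the gene of SREBP-2, on a probe set with several symbols, which was not used. On its single-symbol probe set Srebf2 averaged 8.11 ± 0.098 in E15.5 cells, 8.05 ± 0.090 in P5 cells and 7.74 ± 0.19 in P10 cells. It fell at P10 against E15.5 by 0.37 on the log2 scale (SE 0.10, adjusted p = 0.0199, and 0.0582 to 0.0699 without E15.5 array 2, P10 array 2 or P10 array 3, and -0.25 with 0.176 after ribosomal centring). Srebf1, whose product mainly drives fatty acid synthesis, was higher at P10 than at E15.5 by 0.31 ± 0.10 (adjusted p = 0.0334, and 0.0540 to 0.114 without E15.5 arrays 1 or 3 or P10 arrays 2 or 3, and 0.0707 with the variance trend). Its P10 difference from P5, 0.35 ± 0.10, passed without E15.5 array 3 (0.0463). Scap lay within 8.79 to 8.996 on all 9 arrays, and was called lower at P10 than at E15.5 with quantile normalisation (-0.22, adjusted p = 0.0381). None of the 3 had a called difference at P5 against E15.5, where 12 of the 19 enzymes and 35.6% of all genes were called.

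Insig1 (probe set 10520362), itself a known target of SREBP-2, had 8.93, 9.04 and 9.02 at E15.5, 10.24, 10.16 and 10.86 at P5 and 9.95, 8.98 and 8.44 at P10. The P5 arrays were above all others, and P10 array 1 was again the highest P10 array. Insig1 rose at P5 against E15.5 (1.42 ± 0.35, adjusted p = 0.0127). The Insig1 difference at P10 against P5, -1.30 ± 0.35, missed the threshold (adjusted p = 0.0759, but 0.0118 without P10 array 1 and 0.0465 with the filter). Insig2 (probe set 10357280), which is not driven by SREBP-2, had 8.15, 7.78 and 7.97 at E15.5, 9.54, 8.87 and 9.32 at P5 and 9.72, 9.76 and 9.75 at P10. It did not come down at P10, where its arrays were above all others. Insig2 rose by 1.28 ± 0.16 at P5 (adjusted p = 0.000370) and by 1.78 ± 0.16 at P10 (adjusted p = 3.81e-05), each against E15.5. Its difference at P10 against P5, 0.50 ± 0.16, was not called (adjusted p = 0.134).

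**Figure D4:**
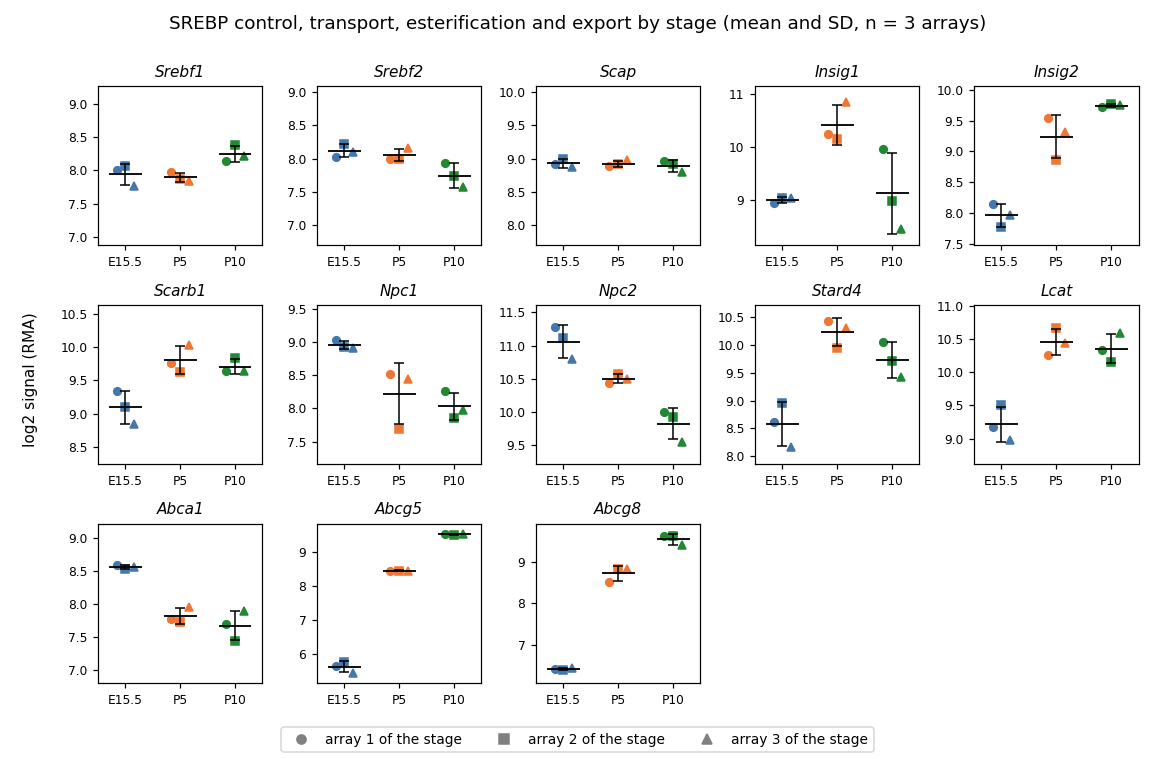
Log2 signal (y axes, set for each gene, with a shared minimum span) of the 13 genes of SREBP control, transport, esterification and export on each array, by stage (x axes). Symbols mark the 3 arrays of a stage, and black lines are the mean and SD. Abcg5 and Abcg8 step up at each stage, Insig1 is highest at P5 and Insig2 at P10.

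Uptake and transport genes parted into 2 that rose and 2 that fell at P5 against E15.5 (17.9% and 17.7% of all genes). Stard4 (probe set 10458033), a soluble cytosolic sterol carrier, had 8.62, 8.96 and 8.15 at E15.5, 10.43, 9.95 and 10.31 at P5 and 10.06, 9.71 and 9.42 at P10. The E15.5 arrays lay below all others. Stard4 rose by 1.65 ± 0.23 at P5 (adjusted p = 0.000681) and by 1.15 ± 0.23 at P10 (adjusted p = 0.00424), each against E15.5, and P10 and P5 overlapped. Scarb1, the high-density lipoprotein receptor, averaged 9.09 ± 0.25 in E15.5 cells, 9.81 ± 0.21 in P5 cells and 9.71 ± 0.12 in P10 cells, and rose by 0.72 ± 0.15 at P5 and 0.62 ± 0.15 at P10, each against E15.5 (adjusted p = 0.00479 and 0.00915). The P10 rise was 0.38 after quantile normalisation (0.0411).

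Npc2 and Npc1 hand cholesterol out of the lysosome, and both fell. Npc2 (probe set 10401519) had 11.28, 11.11 and 10.79 at E15.5, 10.44, 10.57 and 10.49 at P5 and 9.997, 9.92 and 9.55 at P10, with no overlap between stages. The decrease at P10 against E15.5 was -1.24 ± 0.15 (adjusted p = 0.000190). The decrease at P5 against E15.5 was -0.56 ± 0.15 (adjusted p = 0.0173, and 0.0535 to 0.0620 without E15.5 array 1, E15.5 array 2 or P5 array 1, and 0.0572 with ribosomal centring), and -0.85 after quantile normalisation. From P10 arrays against P5 it was -0.68 ± 0.15 (adjusted p = 0.0359), a call that held only without E15.5 array 1 or 3 among fits that left out an array (0.0503 to 0.103 in the other 7, and 0.0670 with the Y-linked term). Npc1 averaged 8.95 ± 0.066 in E15.5 cells, 8.22 ± 0.46 in P5 cells and 8.03 ± 0.21 in P10 cells. It fell at P10 against E15.5 (-0.92 ± 0.21, adjusted p = 0.00746) and at P5 against E15.5 (-0.73 ± 0.21, adjusted p = 0.0246, and 0.0577 to 0.0769 without any 1 of the 3 E15.5 arrays), and the P5 difference was -0.47 without P5 array 2.

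Lcat (probe set 10581388), secreted by hepatocytes to esterify cholesterol in plasma, had 9.17, 9.50 and 8.97 at E15.5, 10.26, 10.66 and 10.44 at P5 and 10.33, 10.15 and 10.59 at P10. Both postnatal stages were above E15.5 and overlapped each other. The rises against E15.5 were 1.24 ± 0.17 at P5 and 1.14 ± 0.17 at P10 (adjusted p = 0.000511 and 0.000661).

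The biliary exporters rose most of all 32 genes. Abcg5 (probe set 10453318) had 5.66, 5.77 and 5.45 at E15.5, 8.45, 8.46 and 8.46 at P5 and 9.53, 9.49 and 9.54 at P10. Abcg8 (probe set 10447239), its obligate partner, had 6.41, 6.38 and 6.44 at E15.5, 8.51, 8.83 and 8.82 at P5 and 9.62, 9.61 and 9.39 at P10. For both genes each stage lay wholly above the one before, with spreads far smaller than the steps. At P10 Abcg5 was 14.9-fold higher than at E15.5 (3.89 ± 0.080, adjusted p = 1.34e-08) and Abcg8 8.79-fold higher (3.14 ± 0.10, adjusted p = 1.16e-07). At P5 the rises against E15.5 were 2.83 for Abcg5 and 2.31 for Abcg8. The further rises at P10 against P5 were 1.06 ± 0.080 for Abcg5 (adjusted p = 0.000594) and 0.82 ± 0.10 for Abcg8 (adjusted p = 0.00381), and all these calls held in every alternative setting. The E15.5 mean of Abcg5, 5.63, was under percentile 30 of all gene means (5.72), and no test against background was run.

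Abcg5 and Abcg8 are neighbours transcribed in opposite directions, with 109 bases between their RefSeq starts in GRCm38.p6. The window before the Abcg5 start is printed because it holds the whole stretch between the 2 starts. It is at chr17:84683012-84683261 on the minus strand, and 109 of its 250 bases are shared with the Abcg8 window at chr17:84682871-84683120 on the plus strand.
Abcg5: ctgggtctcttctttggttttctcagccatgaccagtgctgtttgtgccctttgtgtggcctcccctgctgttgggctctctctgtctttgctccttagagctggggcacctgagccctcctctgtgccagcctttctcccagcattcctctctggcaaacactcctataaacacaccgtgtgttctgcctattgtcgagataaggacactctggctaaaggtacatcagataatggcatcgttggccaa
No capitals appear because the window holds 0 CCAAT boxes on either strand. The Abcg8 window holds 2, and neither window holds GGGCGG or CACGTG.

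Abca1, which loads cholesterol onto apolipoprotein A-I in many cell types, went the other way from the biliary pair. It averaged 8.56 ± 0.026 in E15.5 cells, 7.82 ± 0.12 in P5 cells and 7.68 ± 0.22 in P10 cells. The decreases were -0.74 ± 0.11 at P5 and -0.88 ± 0.11 at P10, each against E15.5 (adjusted p = 0.000971 and 0.000278). The hepatocyte list averaged 12.22 to 12.29 at P5 and 8.89 to 9.09 at E15.5, and the stellate list 8.15 to 8.48 at P5 and 9.91 to 10.14 at E15.5. The part of these shifts in the opposite courses of Abca1 and Abcg5 was not tested.

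Of 51 other genes of the pathway on a separate list, 46 were measured. At P5 against E15.5, 11 rose and 11 fell (17.9% and 17.7% of all genes), and 13 rose and 14 fell at P10 against the same stage (20.1% and 18.6%). Between P10 and P5, 0 rose and 3 fell (2.76% and 2.89%). Their median differences were 0.026, 0.012 and -0.033. In acetyl-CoA supply the mitochondrial citrate carrier Slc25a1 rose by 2.06 ± 0.14 at P5 and 2.02 ± 0.14 at P10, the cytosolic acetyl-CoA synthetase Acss2 by 0.66 ± 0.16 and 0.81 ± 0.16, and malic enzyme Me1 by 0.76 ± 0.14 at P10, all against E15.5. In isoprenoid branches, 6 of 9 genes did not pass in either comparison with E15.5. There the prenyltransferase subunit Rabggta rose (0.74 ± 0.15 at P5 and 0.87 ± 0.15 at P10), Fntb fell at P5 (-0.35 ± 0.075) and Pdss2, of ubiquinone synthesis, rose at P10 (0.91 ± 0.19).

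Of the 8 genes of SREBP processing and sterol sensing, 4 fell and 1 rose at P5 against E15.5 (17.7% and 17.9% of all genes). At P10, 5 fell and 1 rose against E15.5 (18.6% and 20.1%), and 1 fell and 0 rose against P5 (2.89% and 2.76%). The sterol-binding Insig partners Erlin2 (-1.54 ± 0.21 at P5 and -2.58 ± 0.21 at P10) and Erlin1 (-0.92 ± 0.16 and -1.52 ± 0.16) fell, as did the SREBP-cleaving site-1 protease Mbtps1 (-0.95 ± 0.20 and -1.43 ± 0.20). The fatty acid desaturase Fads2 rose (1.56 ± 0.18 and 1.08 ± 0.18). Erlin2 alone in this list was called at P10 against P5 (-1.04 ± 0.21).

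Of 15 receptors, lysosomal genes and sterol carriers, 3 rose and 5 fell at P5 against E15.5, and 3 rose and 7 fell at P10 against E15.5. The share that rose was near that of all genes (17.9% and 20.1%), and 17.7% and 18.6% of all genes fell. The lipid carrier Stard5 (3.08 ± 0.15 at P5 and 3.14 ± 0.15 at P10), the sterol transfer protein Gramd1c (1.51 ± 0.12 and 1.79 ± 0.12) and the cholesteryl ester hydrolase Nceh1 (1.34 ± 0.18 and 1.19 ± 0.18) rose. The endocytic receptors Lrp1 (-0.98 ± 0.080 and -1.35 ± 0.080) and Vldlr (-1.09 ± 0.16 at P5) fell. Between P10 and P5, Lipa, the lysosomal acid lipase gene, fell (-1.37 ± 0.13), as did Lrp1 (-0.37 ± 0.080). Among genes of the oxysterol response and lipoprotein remodelling, 4 of 9 rose and 1 fell at P5, and 4 rose and 2 fell at P10. Nr1h3, which encodes LXR-alpha, rose by 2.31 ± 0.21 at P5 and 2.83 ± 0.21 at P10, and Nr5a2, a nuclear receptor of bile acid synthesis, by 1.95 ± 0.17 and 2.65 ± 0.17. The bile salt pump Abcb11 (1.80 ± 0.12 and 1.83 ± 0.12) and the sterol hydroxylase Cyp27a1 (1.41 ± 0.19 at P10) also rose. The phospholipid genes Pltp (-1.37 ± 0.26 and -1.32 ± 0.26) and Lpcat3 (-1.07 ± 0.19 at P10) fell.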

How the data were processed

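The deposited values are log2 signals per probe set. Per the submitters' processing notes the authors used robust multi-array averaging (RMA), Affymetrix Expression Console and Transcriptome Analysis Console 2.0. The order of the steps and the genome build are not given in the sources used here. RMA quantile-normalises probes between arrays. Of 35556 probe sets, 21789 had 1 gene symbol in the platform annotation, 1621 had several and 12146 were not listed. For 21698 probe sets the symbol was brought up to date by matching Entrez identifiers to RefSeq. Each of 19938 genes was represented by its single-symbol probe set with the highest mean over the 9 arrays.

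Stage was the only term of linear models fitted to all genes and all 9 arrays in limma 3.58.1 under R 4.3.3, and the code was tested on simulated data. The p-values of 2-sided moderated tests received the Benjamini-Hochberg adjustment across 19938 genes in each comparison, and an adjusted p under 0.05 was called. A difference is given with its standard error from the fit and a mean with the SD of its 3 arrays. The number of arrays limits the precision. Deviations from stage means were compared between same-numbered arrays of different stages, giving Pearson r of -0.079 to 0.069 for 9 pairs, so arrays were not paired. The members and gene lists were chosen with earlier results of these data known. Per-array values are printed for members that differed by at least 1 on the log2 scale in a called comparison. Of each list of other pathway genes, the text names up to 4 called genes with the largest difference per comparison and called genes that went against most of their list. Of each marker list it names the 2 genes with the highest mean. Alternatives were quantile normalisation, centring on ribosomal protein genes, a filter at percentile 30, the mean of all probe sets of a gene, a variance trend with robust fitting, a replicate block, a term for Y-linked signal, and leaving out each array. Promoters are RefSeq sequences of build GRCm38.p6, searched over the 250 bases before each annotated start.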

Additional observations from a re-analysis of the deposited data

How the results depend on the processing

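Of 1536 values of the 32 genes under 16 alternative settings, 1425 kept their side of the threshold, 85 lost their call and 26 gained one. Among the 1425, 30 uncalled differences of at most 0.18 as reported changed sign, and 0 called values did. Part of the 1536 values could not change sign. The filter, the variance trend, the replicate block and fits without an array of the stage not compared leave a difference as it is. With the replicate block, 22, 19 and 10 of the 32 genes were called for P5 over E15.5, P10 over E15.5 and P10 over P5 (the order used below), and 6886, 7440 and 893 of all genes. Leaving out 1 array gave 17 to 23, 17 to 23 and 5 to 16 of the 32 genes, and 6194 to 7174, 6754 to 7895 and 586 to 1385 of all genes, with the spread pooled over stages. At P10 against P5, 6 and 7 of the 32 were called without P5 arrays 1 and 2 and 5 and 7 without P10 arrays 2 and 3. Without P10 array 1 there were 16, beside 12 with all arrays. The source of these shifts was not tested. The calls that held in every setting were 15 of 22, 16 of 20 and 5 of 12, the last being Sqle, Lss, Cyp51, Abcg5 and Abcg8. Of all genes called at P5 and at P10 against E15.5, 50.2% and 51.8% were higher, but 63.3% and 64.3% after centring on ribosomal protein genes, which moved the median of all genes to 0.15 in both. No call of the 32 genes changed direction with it. The term for Y-linked signal left 8 of the 32 genes called at P10 against P5, and 904 of all genes. The replicate numbers name no shared source, and the block ended the calls of Lss at P10 against E15.5 and of Pmvk and Hsd17b7 at P10 against P5.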
